A study of Arabidopsis thaliana with 6 samples.

Results

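Extensins, arabinogalactan proteins and other proline-rich or glycine-rich proteins of the cell wall were examined for binding of the transcription factor NLP2 in Arabidopsis thaliana seedlings. Members were the protein-coding genes of the 5 nuclear chromosomes whose annotated symbol or synonyms contain extensin, arabinogalactan, glycine-rich protein, proline-rich protein or hydroxyproline-rich. There were 97 such genes among 27444. Of these, 14 had an NLP2-GFP summit inside the gene or within 1000 bp of either end, and 83 had none. A summit is the base at which a peak is highest. The 14 genes rested on 16 peaks, 12 in the list without nitrate and 4 in the list with nitrate, so the 14 genes were chosen by the positions of these summits, which are given as a description with no test. A summit at either time was found for 3.14% of all protein-coding genes.

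The study mapped NLP2, a NIN-like protein that takes part in the nitrate response, by chromatin immunoprecipitation and sequencing (ChIP-seq). All libraries came from one genotype, the nlp2-2 mutant in the Col-0 background with a pNLP2::NLP2-GFP transgene, so the tagged protein was driven by the NLP2 promoter and no line without it was among the samples used here. Whole seedlings, 14 days old by their label, had grown for 10 days on 3 mM nitrate and were then starved of nitrogen for 3 days. They received either fresh nitrogen-free solution (T0) or 3 mM nitrate for 30 min (T30). Each time had 2 libraries precipitated with antibodies against GFP and 1 input library of chromatin DNA. The precipitated libraries of a time were pooled into 1 list, which held 579 peaks at T0 and 593 at T30. The lists hold no value per replicate and no read depth, so no replicate error can be given, and no difference between the times was tested. Nothing in the labels tells if a time's libraries were grown separately.

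Extensins are rod-like wall glycoproteins built from serine and proline repeats. Their prolines are hydroxylated and carry arabinose side chains, and the proteins are cross-linked into a network in the wall. Arabinogalactan proteins carry large galactose-rich and arabinose-rich glycans, and many are tethered to the outer face of the plasma membrane by a lipid anchor. Their genes often encode long runs of similar short motifs, which makes parts of related genes alike in sequence.

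At T0 the peaks fell on 7 genes grouped by name as extensin-type, 4 small arabinogalactan protein genes and the proline-rich protein gene PRP4. At T30 most of these genes had no listed peak. T0 summits marked 12 of the 97 members (12.4%), against 1.35% of all protein-coding genes. T30 summits marked 5 members (5.15%), against 1.91% of all genes. Peaks at both times were listed for 3 members, EPR1, EXT6 and AGP3, and 0.120% of all genes had one at both times. Another 9 members had a peak at T0 alone, where the share of all genes was 1.23%, and 2 at T30 alone, where it was 1.79%. The members were chosen with these peaks known, so the shares are given side by side and nothing is read from their difference.

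The times are not on the same footing, because the lists end at different −log10 q values. The thresholds set by the authors are not given in the sources used here. The lowest −log10 q kept by the authors was 16.1 at T0 and 20.4 at T30. Only 4 of the 12 T0 members, EPR1, EXT6, PERK13 and AGP4, reached the T30 minimum, and 110 genes in all did so (0.401%). At this shared cut-off 4 members were marked at T0 and 5 at T30. The T0 peaks of the other 8 members were below the T30 minimum. Of the 9 members with a T0 peak alone, PERK13 and AGP4 were above that cut-off.

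**Figure D1:**
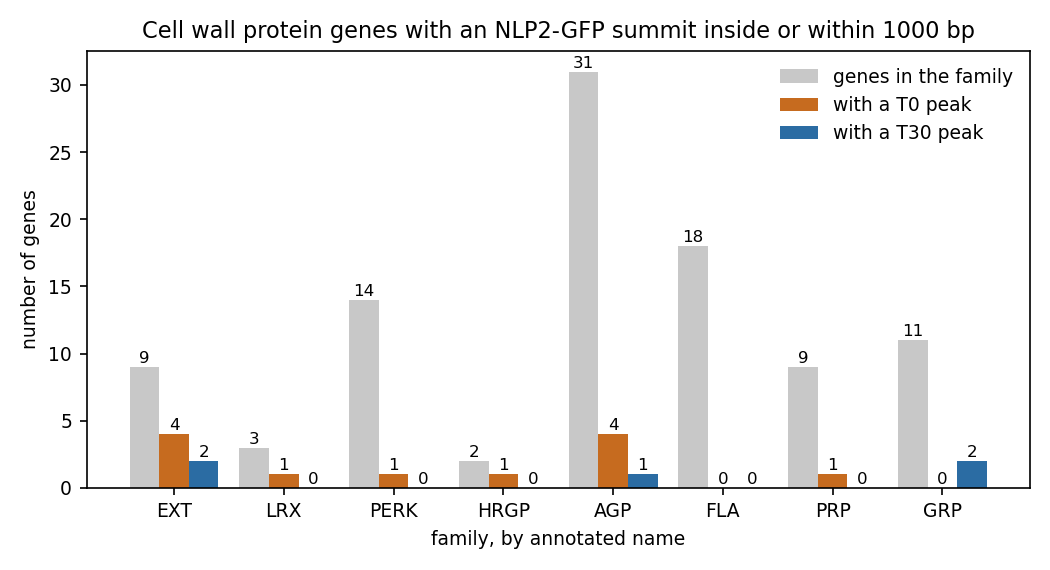
Number of genes in each family of wall proteins (grey), with the number that had an NLP2-GFP summit inside or within 1000 bp at T0 (orange) and at T30 (blue). EXT stands for genes with extensin in their name that fell in no other family. LRX stands for leucine-rich repeat extensins, PERK for proline-rich extensin-like receptor kinases and HRGP for hydroxyproline-rich glycoproteins. AGP stands for arabinogalactan proteins, FLA for their fasciclin-like relatives, PRP for proline-rich and GRP for glycine-rich proteins. T0 peaks fell in 6 of the 8 families, and FLA with 18 genes had none at either time.

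The EXT family took in every gene with extensin in its name that fell in no other family, and so held more than classical extensins. Of its 9 genes, 4 had a T0 peak, against 1.35% of all genes. Of these 4, 2 also had a T30 peak, and 0.120% of all genes had a peak at both times. EPR1 (AT2G27380), an extensin-like gene known from the endosperm of germinating seeds, had the highest T0 fold of the members. Fold here is the enrichment that the authors' peak caller gave each peak, and it ranks peaks within 1 list only. The EPR1 peak at T0 spanned chr2:11713619-11715729 (TAIR10), with its summit at 11715159, a fold of 2.64 and a −log10 q of 43.1. It ranked 54 among the 579 T0 peaks by fold, and 10 among the 259 T0 peaks whose summit lay inside a protein-coding gene. The T30 list held a peak at the same place, chr2:11713672-11715702, with a fold of 2.30 and a −log10 q of 27.4, which ranked 467 among 593. The EPR1 summit also lay within 1000 bp of the neighbouring gene AT2G27385.

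EXT6 (AT2G24980), a classical extensin, was close behind. Its T0 peak at chr2:10622633-10624118 had a fold of 2.62, a −log10 q of 42.2 and rank 57. Its T30 peak, at chr2:10622622-10624074, had a fold of 2.18, a −log10 q of 22.8 and rank 532 in the T30 list. No other protein-coding gene lay within 1000 bp of either EXT6 summit. These 2 genes stood apart from the other T0 members, whose next highest fold was 2.14.

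EXT4 (AT1G76930), also a classical extensin, and ELP (AT1G12090), annotated as an extensin-like protein, had peaks at T0 alone. No sequence was used here, so the place of ELP in this family rests on its name alone. The EXT4 peak lay at chr1:28895732-28896352 with a fold of 1.99 and a −log10 q of 17.0. The ELP peak lay at chr1:4090259-4090538, with a fold of 2.04 and a −log10 q of 18.8. Folds of the T0 list ran from 1.87 to 10.5 with a median of 2.06, so ELP was close to the median, at rank 317 of 579, and EXT4 lower, at rank 429. The remaining 5 genes of this family, EXT3, EXT10, EXT12, EXT13 and the gene with the symbol EXT-like, had no summit within 1000 bp. EXT3 is the extensin that forms the scaffold of the embryonic cell plate. The gene called EXT-like is also annotated as LIP5, a homologue of a mammalian endosomal protein, so its name alone places it among wall proteins.

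Genes that join an extensin domain to another domain, and the hydroxyproline-rich glycoprotein genes, had a peak in 1 case per family, always at T0 alone. LRX1 (AT1G12040), which joins leucine-rich repeats to an extensin domain and acts in the wall of growing root hairs, had a peak at chr1:4071205-4072322. Its fold was 2.08 and its −log10 q 20.0, just under the T30 minimum. PERK13 (AT1G70460), a receptor kinase with a proline-rich extracellular part that restrains root hair growth, had a peak at chr1:26556212-26557405. Its fold of 2.14 and −log10 q of 22.3 were the highest of the members found at T0 alone. HRGP1 (AT3G54590) had a wide peak at chr3:20206397-20208418, with a fold of 2.03 and a −log10 q of 19.5. Within these families 2 of 3 LRX genes, 13 of 14 PERK genes and 1 of 2 hydroxyproline-rich genes had no peak at either time. With 3.14% of all genes marked at either time, having no peak is the common case, so nothing is read from these counts.

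Among the 31 arabinogalactan protein genes, 4 had a T0 peak and 1 of them, AGP3, also had a T30 peak. AGP4 (AT5G10430), also known as JAGGER and needed in the ovule to stop further pollen tubes from arriving, had a T0 peak at chr5:3277863-3278175. Its fold was 2.11 and its −log10 q 21.0, and its summit also lay inside an overlapping gene, AT5G10435. AGP3 (AT4G40090) had a T0 peak at chr4:18581055-18581449, with a fold of 2.04 and a −log10 q of 18.8, and a T30 peak at chr4:18581053-18581453 with a fold of 2.14 and a −log10 q of 21.4. AGP2 (AT2G22470), at chr2:9538417-9538756, had a fold of 2.01 and a −log10 q of 17.6. AGP11 (AT3G01700), an arabinogalactan protein of pollen, had a peak at chr3:259006-259351 with a fold of 1.99 and a −log10 q of 17.0. AGP6, its pollen-expressed relative, and the other 26 genes of the family had none, which is the common case, as 3.14% of all genes were marked at either time.

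The 4 arabinogalactan peaks were short and alike, from 313 to 395 bp wide, on genes of 753 to 974 bp. The 7 peaks on genes with an extensin-type name (EXT, LRX, PERK and HRGP) ran from 280 to 2111 bp, with a median of 1194 bp. The fasciclin-like arabinogalactan genes, which add an adhesion domain to the arabinogalactan stretch, had no summit within 1000 bp in any of 18 cases at either time. With 3.14% of all genes marked at either time, a count of 0 among so few genes is near the background.

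Among the 9 proline-rich protein genes, PRP4 (AT4G38770), a structural wall protein, had the lowest fold of all member peaks. Its T0 peak spanned chr4:18097008-18097949 with a fold of 1.98 and a −log10 q of 16.7. The summit also lay inside an overlapping gene, AT4G38775. PRP1, PRP2, PRP3 and PELPK1 had no peak, nor did PRPL1 (symbol MOP10) and the 3 genes annotated as basic proline-rich proteins. Such absence is the common case, as 3.14% of all genes were marked at either time.

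The 11 genes with a glycine-rich protein name had no T0 peak, and 2 of them lay beside a T30 peak. Over all genes the shares were 1.35% at T0 and 1.91% at T30, so a count of 0 among 11 is near the background. Glycine-rich genes without such a name were not searched. The 2 genes, GRP19 (AT5G07550) and GRP20 (AT5G07560), are neighbours and rested on 1 summit between them. These belong to a cluster of genes for oleosin-like proteins of the pollen coat. The peak, at chr5:2389802-2390082, was 281 bp wide with a fold of 2.66 and a −log10 q of 42.4. The summit was within 250 bp of GRP20 and farther from GRP19, which was therefore lost with a window of 500 bp. It ranked 332 among 593, below the T30 median fold of 2.75, and the nearest T0 peak was 151275 bp away. GRP14, GRP16 and GRP18 of the same cluster had no summit within 1000 bp, nor did GRP2B and CCR1, which are annotated as cold shock and RNA-binding proteins and not as wall proteins.

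**Figure D2:**
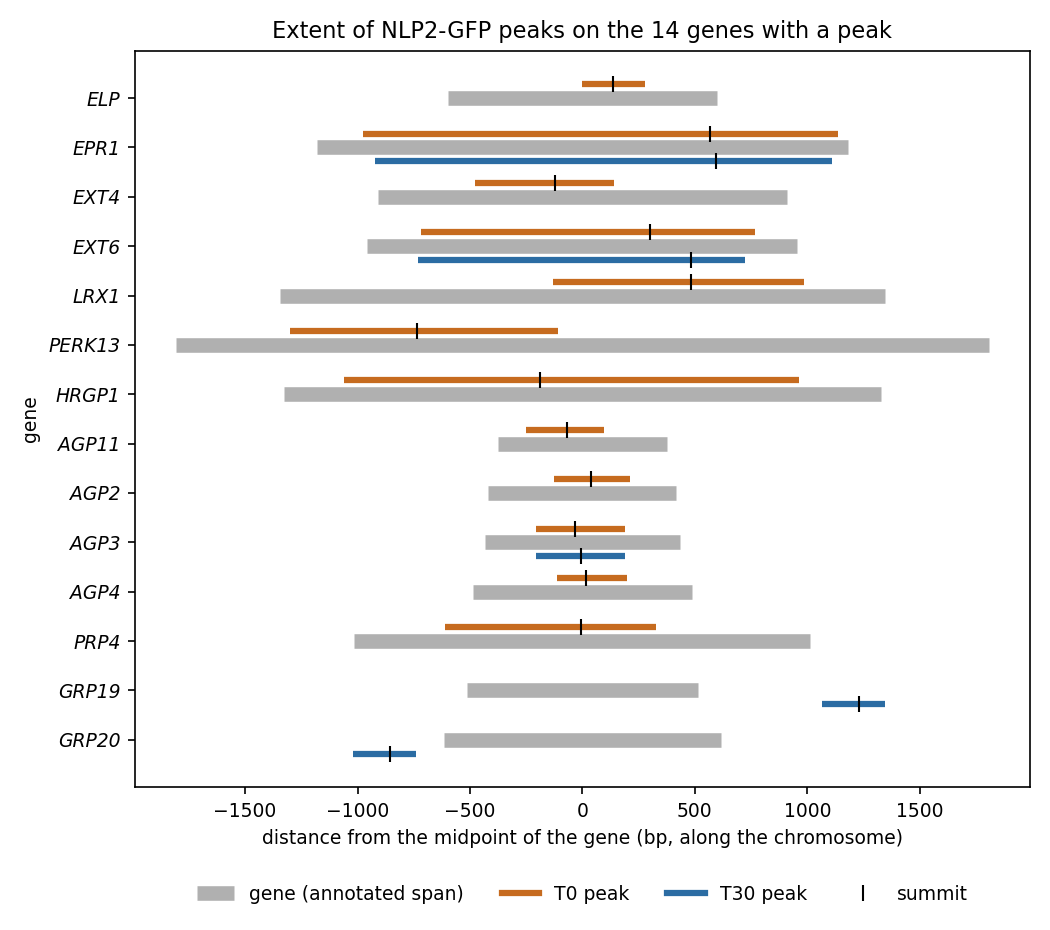
Span of each of the 14 genes with a peak (grey bar) with the extent of its T0 peak (orange, above) and T30 peak (blue, below), in bp from the gene's midpoint along the chromosome, strand not shown; black ticks are summits. All 12 T0 peaks lie within their gene, the 3 shared peaks have nearly the same ends at both times, and the T30 peak of GRP19 and GRP20 lies between these genes.

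All 12 T0 peaks lay wholly inside the member gene, in every family that had one. Their summits lay at 29.6% to 73.9% of the gene's length. This was counted from the end with the lower coordinate, because strand was not available, so it is not a distance from the transcription start. All genes with a T0 summit inside made up 0.987% of protein-coding genes, and those with a T30 summit inside 0.718%. Over all other genes with a T0 summit inside, 234 of 260 peaks lay wholly inside the gene, and 63.1% of summits fell between 25% and 75% of its length. Other genes, here and below, can include wall protein genes without a matching name. A summit inside the gene was the common case at T0: 94.2% of the 275 T0 peaks beside any protein-coding gene had one. At T30 the share beside any gene was 50.8% (195 of 384), and 3 of the 4 member peaks lay inside. For T30 summits inside other genes, 18.5% of 195 were in that range. EPR1 and EXT6 had T30 summits at 75.1% and 75.3% of the gene and AGP3 at 49.2%.

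Peaks covered a large part of some genes. The T0 peak spanned 89.3% of EPR1, 77.6% of EXT6 and 76.1% of HRGP1. On the other 9 genes it spanned 23.5% to 46.4%, with ELP lowest and PRP4 highest. Peak width followed gene length among the members, with Pearson's r of 0.86 between the log10 values and Spearman's rho of 0.75 over 12 genes. Across the other 260 pairs of a gene and a T0 summit inside it, r was 0.41 and rho 0.37. A peak that lies inside a gene cannot be wider than the gene, and the peaks share libraries, so this is a description.

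**Figure D3:**
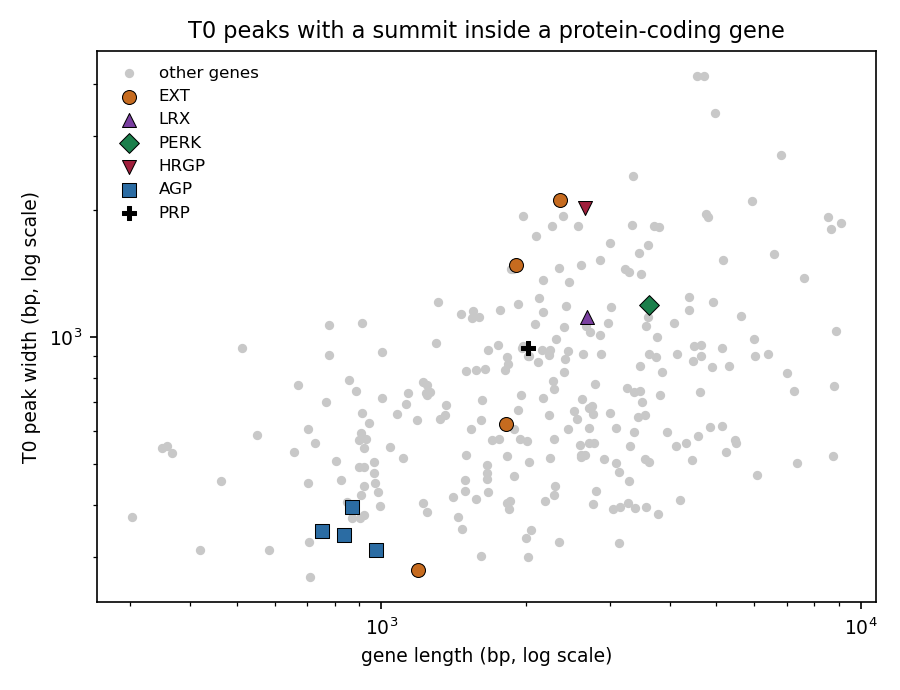
Width of each T0 peak whose summit lay inside a protein-coding gene against the length of that gene, both in bp on log scales. Coloured symbols are the wall protein families found by name. Grey points are other genes, which can include wall protein genes without a matching name. The 4 arabinogalactan genes sit together at 313 to 395 bp, while EPR1, EXT6 and HRGP1 are among the wider peaks for their gene length.

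The 3 shared peaks kept nearly the same ends at both times. The overlap was 96.2% of the joint span for EPR1, 96.3% for EXT6 and 98.5% for AGP3. The ends differed by 53 and 27 bp for EPR1, by 11 and 44 bp for EXT6, and by 2 and 4 bp for AGP3. Such close fits were frequent among shared peaks in general, with 58 of 114 at 90% or more. Summits moved by 27 bp for EPR1, 28 bp for AGP3 and 185 bp for EXT6. For the 9 members with a T0 peak alone, the nearest T30 peak was at least 6968 bp away, this being the case of ELP.

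The T0 member peaks had a median fold of 2.04, against 2.03 over the 259 T0 peaks with a summit inside a protein-coding gene, and 5 of 12 were at or above the median of the whole list. Values below the median were often tied. AGP3 and ELP had the same fold and q, which 9 T0 peaks shared, and AGP11 and EXT4 had a pair of values that 26 T0 peaks shared. Ranks within this range are therefore coarse. In the T30 list all 4 member peaks lay below the median fold.

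**Figure D4:**
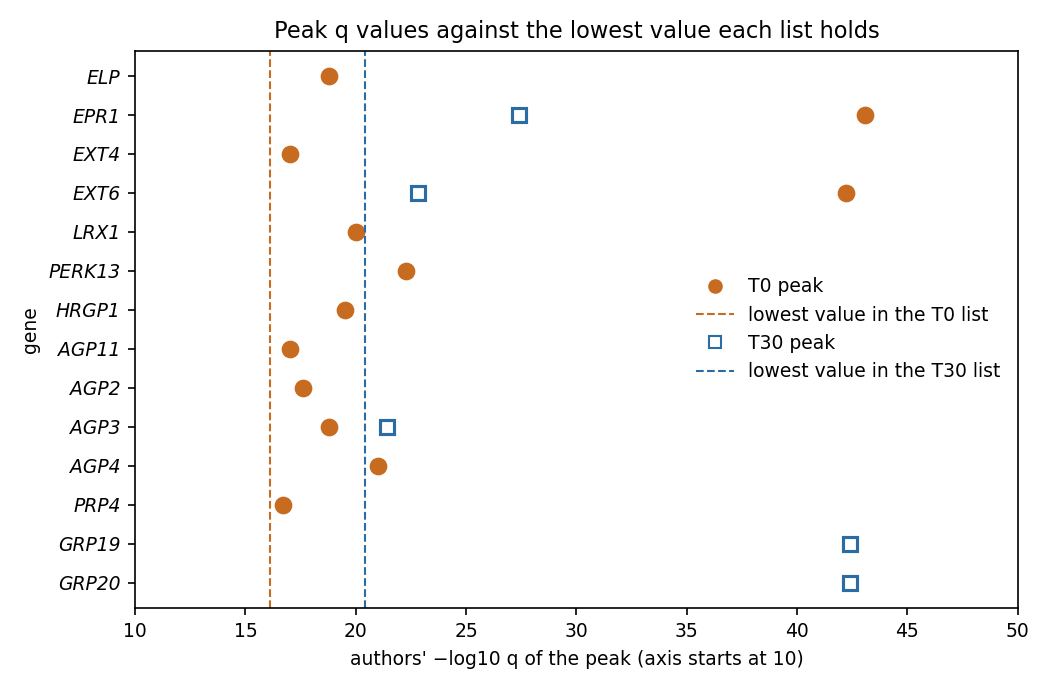
The authors' −log10 q of each member peak at T0 (filled circles) and T30 (open squares), with dashed lines at the lowest value in each list (16.1 and 20.4); the axis starts at 10. Only EPR1, EXT6, PERK13 and AGP4 have T0 values above the T30 line; GRP19 and GRP20 show the same peak.

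Neither input list had a peak within 1000 bp of any of the 97 members. These lists held only 87 peaks at T0 and 22 at T30. The share of all genes beside an input peak was not counted, so nothing is read from this absence. No member peak overlapped an input peak. Such lack of overlap was the usual case for T0 peaks beside a protein-coding gene, of which 2 of 275 overlapped one. The names of the IP lists also read noCM and noINPUT. What these terms mean, and how the input was used in making the lists and their folds, is not given in the sources used here. No member peak lay in a gene-poor region, defined as fewer than 100 protein-coding genes starting within 500 kb on each side, and 10 of the 275 T0 peaks beside a protein-coding gene did. Reads were paired, 41 bases long, and how reads that match several places were treated is not given in the sources used here. What repeats within these genes and likeness between relatives do to the peaks was not tested. No genome sequence was used here, so the repeats themselves are not shown.

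The nearest peak beyond the window belonged to EXT12 (AT4G13390). This T30 peak, at chr4:7787033-7787602, lay within 2000 bp of EXT12. Its fold of 4.35 and −log10 q of 139 were higher than those of any T30 member peak. Its summit was more than 1000 bp from EXT12 and so was not counted for it, and was within 1000 bp of AT4G13400. Among the members counted, GRP19 was the one farthest from its summit, that of the peak with a fold of 2.66 described above.

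Genes that modify or accompany these proteins had 0 or 1 peak per list and time. At shares of 1.35% at T0 and 1.91% at T30 over all genes, lists of this size would hold few in any case, so nothing is read from these counts. A list of 35 genes for prolyl hydroxylases and for glycosyltransferases that build the sugar side chains of these proteins had no summit within 1000 bp at T0 or T30. Genes found by the same kind of name search as expansins (37), pectin methylesterases (21) and cellulose synthases and their relatives (50) also had none at either time. Genes of these families whose names did not match were not counted, so the absence holds for the matched genes only. Of 33 xyloglucan endotransglucosylase genes, which remodel the hemicellulose of the wall, only XTH28 (AT1G14720) had a summit within 1000 bp, at T30, with a fold of 2.48. Of 32 germin-type genes only GER1 (AT1G72610) had a summit inside it, at T0, with a fold of 1.98. Of the T0 peaks found at that time alone with a summit inside a gene, 235 in all, 9 were those of the wall protein members.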

How the data were processed

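Peak lists of 6 libraries were used, as 4 deposited files: 1 IP list and 1 input list per time. Per the submitters' processing notes, TAIR10 was the build and MACS2 2.1.1, Bowtie2 2.3.4.1 and SAMtools 1.7 were among the tools; settings are not given in the sources used here. Per the file headers and the lists' names, the authors pooled replicates, applied a reproducibility filter (IDR), and deposited for each peak a fold (ratio), a −log10 q, a summit offset (used here) and a score. In 100% of IP peaks this score was the −log10 q times 10 without its decimals. Input lists hold fold and −log10 q. Depth is unknown.

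Positions on TAIR10 count from 1. Names of genes and which genes adjoin came from RefSeq's TAIR10.1 table, assumed to share nuclear coordinates with TAIR10; it has no strand or description, so keywords were sought in symbols and synonyms. Its coordinates are not printed. Of its genes, 62.2% have only a locus code as symbol and could be found by keyword only through a synonym. Summits inside or within 1000 bp of a gene were counted for it; peaks overlapping by 1 bp were shared. Python 3.11.15, pandas 2.3.3 and scipy 1.17.1 were used; the assignment was tested on simulated summits. Members and lists were chosen with earlier results of these data known. Every member with a peak was named, as were members with a summit beyond 1000 and up to 2000 bp away. Planned descriptions of protein and promoter sequence were not made, since no sequence was used here. Alternatives were other windows, thresholds, keywords and overlap rules.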

Additional observations from a re-analysis of the deposited data

How the results depend on the processing

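The T0 count of 12 members was the same with windows of 500 bp, 2000 bp or none, with any base of the peak, with the nearest gene only and without peaks on input peaks, and changed with the threshold and the keywords. At the shared q cut-off 4 members and 4 peaks were left at T0. With peaks at or above their own list's median fold, 5 members and 5 peaks were left at T0, and 0 members, 0 peaks and 0 shared peaks at T30. Summits inside the gene only gave 3 members at T30, 100% of them inside by construction. Extensin and arabinogalactan names alone (75 genes) gave 10 members at T0 and 3 at T30, with 100% of the T30 summits inside. The 3 shared peaks stayed shared at an overlap of 50% of both peaks and with summits within 200 bp, while the shared q cut-off left 2, without that of AGP3. Allowing a space in place of the hyphen in keywords, chosen after seeing the data, gave 102 genes and no further member with a peak. In all, 55 of 66 alternatives left a count within 1.5 times the main one or a share within the main share's 95% binomial interval. Several could not change a value. All T0 member summits lay inside the gene, so the windows, the any-base rule and the nearest-gene rule could not lower the T0 count. No member peak lay on an input peak, and every T30 peak met the shared q cut-off, which is the T30 minimum. The interval of the T30 share, from 19.4% to 99.4%, rested on 4 peaks, so the tally is no measure of robustness. No paired analysis was possible because the lists pool the replicates and hold no value per library; for the same reason no replicate could be left out.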

Other observations

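Beside some wall protein genes, the next gene in the table carried a T0 peak of its own. AT3G54580, next to HRGP1, had a T0 peak at chr3:20201159-20203566, 2408 bp wide, with a fold of 2.36 and a −log10 q of 36.0. AT5G06630, next to EXT10, had one at chr5:2036567-2037675, with a fold of 2.37 and a −log10 q of 31.6. Both folds were above those of 10 of the 12 T0 member peaks, and both peaks were absent from the T30 list. AT1G35220, next to AGP5, had a weaker one at chr1:12912006-12912905, with a fold of 2.00. The table gives no descriptive name to these genes, so the keyword search could not reach them, and it does not tell if they encode wall proteins. They were picked out after their values were seen. Only genes next to members were looked at, so other wall protein genes without a matching name are missing from all counts of members given here. Any of them with a summit inside was counted among the other genes.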
